A study of Homo sapiens with 12 samples.

Results

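MDA-MB-231 cells, a human triple-negative breast cancer line, were exposed to 0.5 µM ZA for 48 h and set against cells that received vehicle alone. ZA is a common abbreviation of zoledronic acid, although the labels do not spell it out. The 3 ZA and 3 vehicle RNA-seq libraries are 6 of the 12 libraries of the study, whose remaining groups, not compared here, received 1 µM SFN with or without ZA. The vehicle was 0.01% DMSO with 0.05% water. Whether the ZA dishes received DMSO too is not given in the sources used here, and no cell of either group received SFN. All libraries come from 1 cell line plated in triplicate dishes, and nothing says that these were separate cultures, so the p-values below cover variation among libraries that could be technical alone. Of 57905 genes, 14427 passed the low-count filter in the 6 libraries. Because vehicle 2 stood apart from the rest, the main results are also given for the 5 libraries without it, where 14702 genes passed.

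Markers of the line were present. All 12 MDA-MB-231 markers averaged 1 CPM (a count scaled to library size) or more, with sums of 7299 to 8100 CPM in vehicle and 6933 to 7127 CPM in ZA, while the hormone receptors ESR1 and PGR were at 0. Luminal breast markers summed to 590 to 811 CPM in vehicle and 630 to 753 CPM in ZA. Of these 15 markers only the 2 receptors were at 0, and 9 averaged 1 CPM or more. Leukocyte markers summed to 4.35 to 6.87 CPM in vehicle and 4.27 to 4.77 CPM in ZA with 7 of 14 at 0, and fibroblast and endothelial markers to 39.1 to 64.4 CPM and 55.4 to 63.6 CPM with 1 of 12 at 0. Library totals lay between 15.3 M and 25.4 M counts. On the first principal component, which held 70.7% of the variance, vehicle 2 sat at 87.6 and the other 5 libraries between -33.3 and 4.86. Genes are not independent of each other. Over them, GC content was rank-correlated with a gene's deviation from its median over the 6 libraries. The correlation was -0.659 in vehicle 2 and between -0.565 and 0.633 in the others.

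Nitrogen-containing bisphosphonates block farnesyl diphosphate synthase (FDPS), an enzyme of the mevalonate pathway that builds isoprenoid units from acetyl-CoA. Farnesyl diphosphate is the branch point to cholesterol and to the farnesyl and geranylgeranyl groups that anchor small GTPases in membranes. When sterols run low, SREBP2, encoded by SREBF2, is released to the nucleus and activates genes of cholesterol synthesis and uptake. The drugs bind avidly to bone mineral and are used against bone metastasis and osteoporosis, and they enter cells mainly by endocytosis.

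The sequences printed here belong to genes named below. The SREBF2 promoter window runs from 250 bases before to 50 bases after the start site at chr22:41832855-41833154 (plus strand), and the SLC25A27 window lies at chr6:46652725-46653024 (plus strand). Capitals mark the CCAAT box, searched as CCAAT on both strands, and each window holds 1 match, read on the minus strand (ATTGG) in SREBF2 and on the plus strand in SLC25A27. It was in 12155 of 35116 windows of 300 bases (34.6%), and in 23 of the 37 matched genes among the 46 of the mevalonate, sterol and SREBP lists. The last are the microRNAs whose hairpins lie inside the long noncoding RNA RP6-99M1.2, with the seed (bases 2 to 8) in capitals. All are from RefSeq on GRCh38.p14, and a match is a description of letters and not evidence of binding.
SREBF2 promoter: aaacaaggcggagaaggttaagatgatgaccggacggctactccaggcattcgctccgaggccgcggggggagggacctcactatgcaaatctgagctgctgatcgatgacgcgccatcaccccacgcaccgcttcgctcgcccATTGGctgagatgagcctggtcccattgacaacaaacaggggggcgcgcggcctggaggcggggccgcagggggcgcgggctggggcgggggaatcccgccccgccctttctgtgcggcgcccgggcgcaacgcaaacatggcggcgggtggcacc
SLC25A27 promoter: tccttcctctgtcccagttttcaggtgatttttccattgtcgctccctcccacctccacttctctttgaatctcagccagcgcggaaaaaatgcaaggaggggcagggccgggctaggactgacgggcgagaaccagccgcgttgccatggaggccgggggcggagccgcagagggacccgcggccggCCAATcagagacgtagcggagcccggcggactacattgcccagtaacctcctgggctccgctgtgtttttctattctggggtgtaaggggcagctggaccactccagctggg
hsa-miR-221-3p: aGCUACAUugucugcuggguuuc
hsa-miR-222-3p: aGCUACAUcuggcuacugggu

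In the edgeR fit with a low-count filter and no replicate block, no single gene passed adjustment over all genes, with or without vehicle 2. With edgeR's quasi-likelihood test and Benjamini-Hochberg adjustment at 0.05, 0 of 14427 genes (0%) were called in the 6 libraries, with a lowest adjusted p of 0.911, and DESeq2 also called 0. An unadjusted p under 0.05 was reached by 249 genes (1.73%), 196 of them higher and 53 lower in ZA. Without vehicle 2 edgeR again called 0 of 14702 genes (0%), with a lowest adjusted p of 0.722, and 347 genes (2.36%) had an unadjusted p under 0.05, 290 higher and 57 lower. Those 2 sets shared 173 genes with the same sign. Evenly spread p-values would put 721 and 735 genes under 0.05, more than either fit had. In the same 5 libraries DESeq2 called 12 genes higher and 1 lower (0.0884%). The higher ones were 9 mitochondrial messenger RNAs, MTND2P28, hsa-mir-6723 and NEAT1, and the lower one was RNA28S5. The median 95% interval of a gene's log2 fold change reached 0.52 to either side in the 6 libraries and 0.42 without vehicle 2.

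**Figure D1:**
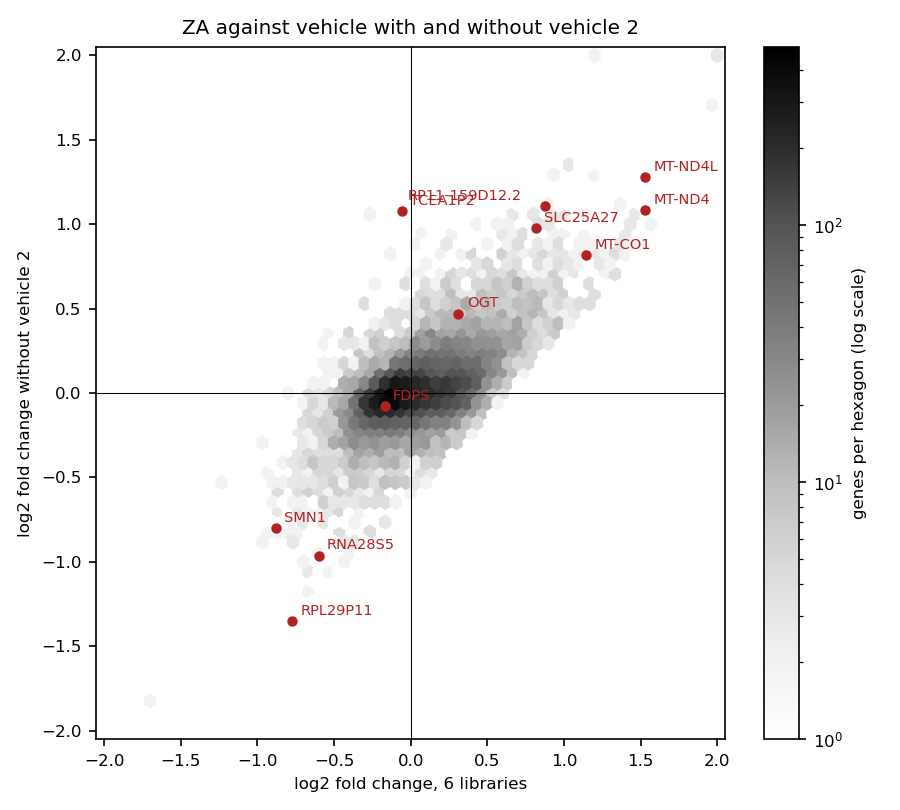
Each hexagon counts genes by their log2 fold change (ZA against vehicle) in the 6 libraries (x axis) and without vehicle 2 (y axis); 15 genes beyond 2 on either axis are drawn at the edge. Of the named genes, MT-ND4L, RP11-159D12.2 and SLC25A27 lie far from 0 in both fits, TCEA1P2 moves from -0.06 to 1.08, and FDPS lies near the origin.

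Enzymes of the mevalonate pathway, where the drug's target sits, had overlapping levels in both groups. FDPS was measured at 105.1, 113.7 and 89.4 CPM in vehicle and at 78.5, 95.8 and 99.7 CPM in ZA. The ranges overlapped, and the log2 fold change was -0.17 (95% interval -0.54 to 0.20), or -0.08 (-0.41 to 0.26) without vehicle 2. GGPS1, which makes geranylgeranyl diphosphate, stood at 31.1, 41.8 and 33.6 CPM against 33.8, 32.0 and 27.7 CPM. Its log2 fold change was -0.19 (-0.58 to 0.21), and -0.04 (-0.38 to 0.30) without vehicle 2. HMGCS1, which condenses acetoacetyl-CoA with acetyl-CoA, peaked in vehicle 2, with 89.7, 133.5 and 92.4 CPM against 109.6, 92.8 and 88.0 CPM. None of the 9 members of the list was without overlap between groups, against 3.85% of all genes with every ZA library above every vehicle library and 3.61% with every one below. The list's median was -0.17, with 3 of 9 above 0, and -0.04 without vehicle 2, again with 3 of 9 above 0, beside 48.9% and 50.1% above 0 among all genes tested (medians -0.01 and 0.00).

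On the deposited per-length scale, IDI1, which interconverts the 5-carbon isoprenoid units, was the highest of 3 genes compared, at 48.6 ± 10.6 FPKM in vehicle and 41.4 ± 7.14 FPKM in ZA (SD, n = 3). FDPS followed at 27.0 ± 3.28 and 24.1 ± 3.09 FPKM, and GGPS1 was lower, at 7.50 ± 1.18 and 6.60 ± 0.64 FPKM. The ZA mean of each lay within 1 SD of its vehicle mean. MVD, the decarboxylase of the pathway, varied most among vehicle libraries, with 37.3, 8.45 and 26.6 CPM against 24.6, 34.3 and 43.6 CPM in ZA, and its log2 fold change of 0.50 became 0.11 without vehicle 2.

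Sterol branch enzymes also overlapped between groups with 2 exceptions. FDFT1, squalene synthase, which commits farnesyl diphosphate to sterols, read 204.0, 301.1 and 207.0 CPM in vehicle and 189.3, 185.6 and 185.7 CPM in ZA. SQLE, squalene epoxidase, read 45.7, 49.7 and 44.1 CPM against 40.02, 42.48 and 41.72 CPM. Every ZA library lay below every vehicle library in both genes, with log2 fold changes of -0.35 (-0.76 to 0.07) and -0.17 (-0.47 to 0.13), which were -0.13 and -0.11 without vehicle 2. Neither passed the test. They were the 2 of 13 enzymes below vehicle in each fit, with 0 above, beside 3.61% and 7.13% of all genes below. CYP51A1, which removes a methyl group from lanosterol, had the widest interval, -0.70 to 2.18 (-0.43 to 0.99 without vehicle 2), with vehicle 2 at 1.18 CPM and the other libraries between 5.06 and 10.3 CPM. The 13 enzymes had a median of -0.02 in the 6 libraries and -0.05 without vehicle 2, each with 5 above 0.

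Regulators and targets of SREBP showed no common direction. SREBF2, named because its promoter is printed above and chosen after its values were seen, was measured at 324.2, 159.0 and 281.7 CPM in vehicle and 283.4, 307.6 and 306.7 CPM in ZA. Its log2 fold change was 0.23 (-0.35 to 0.82), and -0.01 (-0.27 to 0.26) once vehicle 2, its lowest library, was left out. INSIG1, which retains the SREBP complex in the endoplasmic reticulum, had 453.3, 519.8 and 437.1 CPM against 462.7, 402.4 and 391.97 CPM. Its interval was -0.48 to 0.14, and -0.36 to 0.21 without vehicle 2. Of 24 members tested, 0 had an unadjusted p under 0.05 and the median was -0.04, or 0.00 without vehicle 2. SCD, a fatty acid desaturase, was the member whose ZA libraries all lay below vehicle in both fits (log2 fold changes -0.16 and -0.07).

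**Figure D2:**
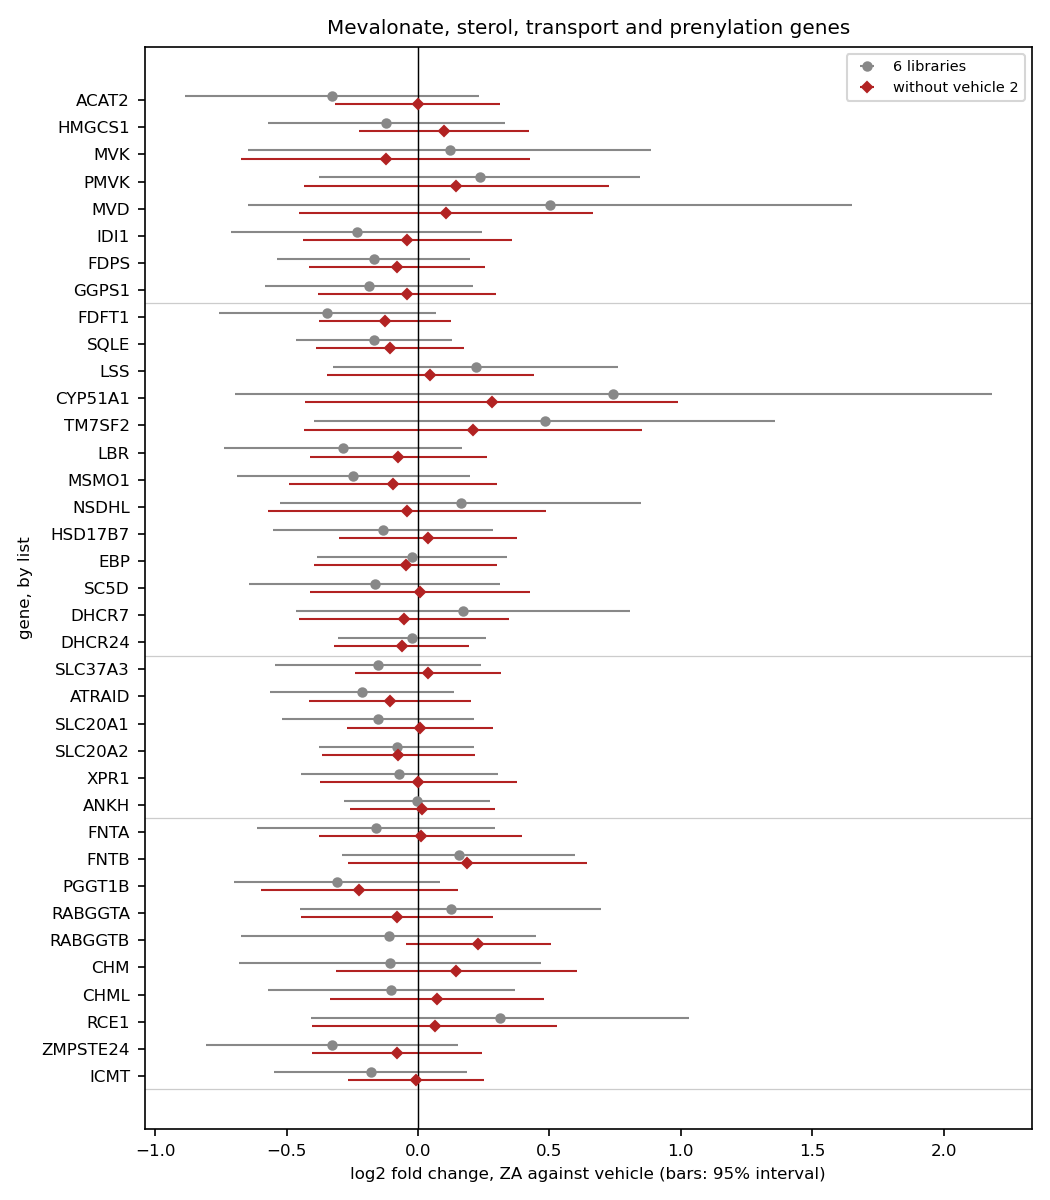
Points are log2 fold changes of ZA against vehicle and bars their 95% intervals for the members reported of the mevalonate enzymes, sterol enzymes, phosphate and bisphosphonate transporters and prenylation enzymes, in the 6 libraries (grey) and without vehicle 2 (red). Every interval spans 0 in both fits, and those without vehicle 2 are mostly narrower.

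Genes linked to uptake of the drug and to attachment of isoprenoid groups gave the same picture. SLC37A3 and ATRAID form a lysosomal complex that releases nitrogen-containing bisphosphonates into the cytosol. SLC37A3 read 94.2, 130.0 and 92.7 CPM in vehicle and 100.2, 94.9 and 90.3 CPM in ZA, and ATRAID read 51.9, 63.1 and 52.5 CPM against 42.9, 52.3 and 49.3 CPM. Their log2 fold changes were -0.15 and -0.21, and 0.04 and -0.11 without vehicle 2. All 6 transport genes were below 0 in the 6 libraries, and 4 of 6 were above 0 without vehicle 2 (medians -0.12 and 0.01).

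Among 10 prenyltransferase and CAAX-processing genes the medians were -0.11 and 0.04. PGGT1B, the catalytic beta subunit of geranylgeranyl transferase I, read 14.6, 18.8 and 17.9 CPM in vehicle and 14.6, 13.8 and 13.0 CPM in ZA, with log2 fold changes of -0.31 and -0.22. Its ZA libraries lay at or below the lowest vehicle library. RABGGTB, the beta subunit of the Rab transferase, lay above vehicle only when vehicle 2 was set aside, with 61.0, 105.3 and 57.8 CPM against 68.8, 68.0 and 70.7 CPM (log2 fold changes -0.11 and 0.23). No member had an unadjusted p under 0.05 in either fit.

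RHOA and RHOB, which carry these isoprenoid groups, had overlapping levels in vehicle and ZA. RHOA, a GTPase that drives actin stress fibres, read 880.2, 1133.7 and 978.8 CPM against 991.4, 840.6 and 774.5 CPM, with a log2 fold change of -0.20 (-0.56 to 0.16). RHOB, a short-lived GTPase found on endosomes, read 59.0, 45.1 and 61.5 CPM against 46.5, 54.2 and 59.7 CPM, with -0.05 (-0.45 to 0.36). Without vehicle 2 the values were -0.09 and -0.16. RAC1, CDC42 and RAP1A had log2 fold changes of -0.10, -0.14 and -0.30, and without vehicle 2 of -0.05, -0.14 and -0.02. RHOC was the least certain, with vehicle 2 at 30.2 CPM, the other vehicle libraries at 220.4 and 141.4 CPM, and an interval of -1.20 to 1.78. Its log2 fold change was 0.29, and -0.17 (-0.90 to 0.56) without vehicle 2.

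By list, 14 Ras and Rap genes had a median of -0.08, or -0.04 without vehicle 2. RHOV reached an unadjusted p of 0.033 without vehicle 2, at about 1 CPM in its libraries. PAK1, a kinase activated by RAC1 and CDC42, had all ZA libraries (37.5, 36.6 and 38.1 CPM) below vehicle (44.8, 43.9 and 39.6 CPM).

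Targets of YAP and TEAD, transcriptional regulators that respond to actin tension, overlapped between groups in the 6 libraries. CTGF read 285.5, 389.1 and 307.4 CPM in vehicle and 320.6, 296.5 and 298.1 CPM in ZA, and CYR61 read 1885.4, 1581.7 and 1628.4 CPM against 1408.3, 1807.8 and 1950.1 CPM. Their log2 fold changes were -0.10 (-0.45 to 0.25) and 0.02 (-0.35 to 0.39), and both changed sign without vehicle 2, to 0.05 (-0.21 to 0.32) and -0.02 (-0.37 to 0.34). The 22 targets had a median of -0.06, with 7 above 0, and -0.01 without vehicle 2, with 8 above 0. BTN3A1, the butyrophilin that binds isoprenoid diphosphates and activates gamma-delta T cells, read 38.4, 37.1 and 28.9 CPM against 29.7, 36.7 and 40.3 CPM (0.03, -0.39 to 0.46). Its value without vehicle 2 was 0.09 (-0.32 to 0.51). Of 12 butyrophilins and stress ligands, 6 were above 0 in each fit.

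The list that stood farthest from 0 in both fits was the 13 messenger RNAs encoded by mitochondrial DNA, which specify core subunits of the respiratory chain and ATP synthase. Summed, they took 27202, 4628 and 15265 CPM in vehicle and 39863, 38063 and 36047 CPM in ZA. All 3 ZA libraries lay above vehicle, and the vehicle libraries differed far more among themselves than the ZA libraries did. All 13 log2 fold changes were above 0, with a median of 1.37. In the 6 libraries 6 had an unadjusted p under 0.05, beside 1.73% of all genes. In 12 every ZA library lay above vehicle, beside 3.85% of all genes. Without vehicle 2 the median was 0.92 and 12 had an unadjusted p under 0.05, beside 2.36% of all genes. Again 12 had every ZA library above vehicle and 0 below, where 6.92% of all genes lay above and 7.13% below. The 13 genes are not independent of each other, so these counts are not 13 separate observations. The median depended on which vehicle library was kept: it was 2.12 without vehicle 1, and among the 5 libraries 0.53 without vehicle 3 and 1.43 without vehicle 1. With the low-count filter and no replicate block, edgeR called 0 of the 13 in the 6 and in the 5 libraries. DESeq2 called 0 in the 6 and 9 in the 5, where it called 0.0884% of all genes. Without vehicle 2 and with no low-count filter, edgeR called 10 of them, beside 24 genes higher and 4 lower of all 26414 tested. With the replicate block it called 1, MT-ND4L, beside 3 genes higher and 2 lower of all 14702 tested. In the 6 libraries both settings called 0.

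**Figure D3:**
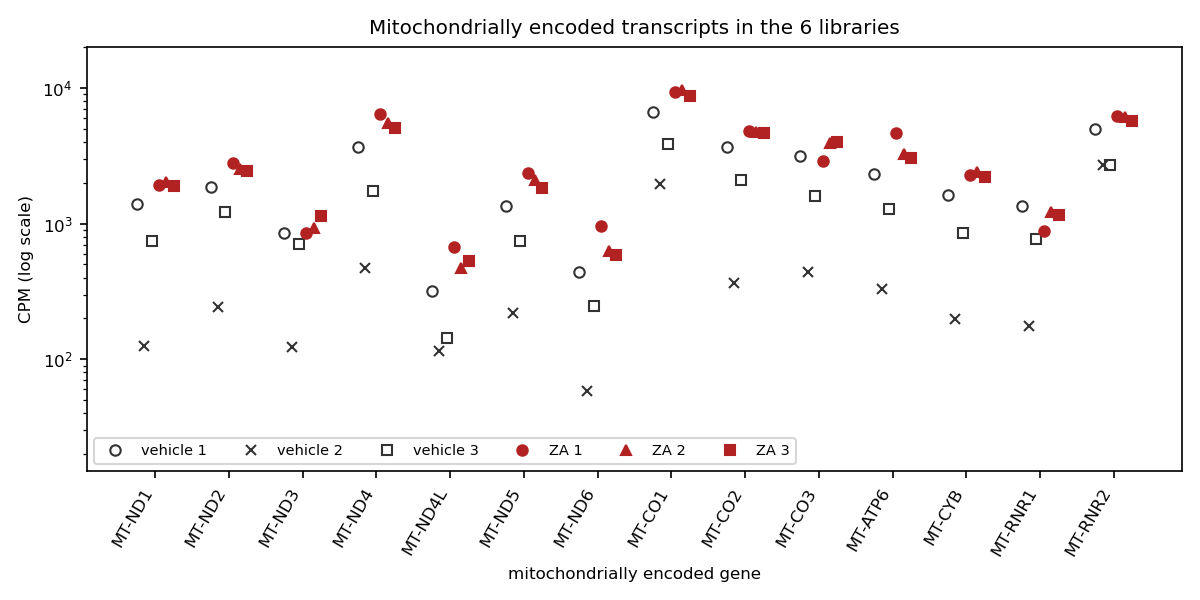
CPM (log axis) of 12 mitochondrial messenger RNAs and both mitochondrial ribosomal RNAs in the 3 vehicle libraries (black) and 3 ZA libraries (red); MT-ATP8, which had 0 counts in vehicle 2, is left out. Vehicle 2 is the lowest library in every gene shown except MT-RNR2, where vehicle 3 is level with it, and ZA libraries overlap vehicle 1 in MT-CO3 and MT-RNR1.

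In complex I, all 7 mitochondrially encoded subunits had positive values. MT-ND4L had 318.2, 115.0 and 143.9 CPM in vehicle and 666.8, 471.5 and 525.9 CPM in ZA. The groups were apart, with log2 fold changes of 1.53 ± 0.38 (SE) and 1.28 ± 0.31 without vehicle 2. MT-ND4L overlaps MT-ND4, so reads in the overlap cannot be assigned with certainty. MT-ND4 had 3666.7, 473.6 and 1728.5 CPM against 6374.6, 5477.6 and 5092.1 CPM (1.53 ± 0.62 and 1.08 ± 0.28). MT-ND6, the sole messenger RNA of the light strand, had 438.1, 58.5 and 247.3 CPM against 959.0, 630.8 and 590.8 CPM (1.55 ± 0.62 and 1.10 ± 0.28). MT-ND3 had the smallest value of the complex, 0.79 ± 0.59 and 0.33 ± 0.15, with its lowest ZA library (848.1 CPM) level with vehicle 1 (847.8 CPM).

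For complex III, MT-CYB had 1615.6, 198.8 and 846.8 CPM against 2299.5, 2389.5 and 2209.3 CPM (1.37 ± 0.62 and 0.92 ± 0.24). In complex IV, MT-CO1 had 6632.2, 1942.4 and 3889.6 CPM against 9283.3, 9615.6 and 8650.9 CPM (1.14 ± 0.39 and 0.82 ± 0.21). MT-CO3 was the member whose groups overlapped, with vehicle 1 at 3140.2 CPM above ZA 1 at 2870.5 CPM. In ATP synthase, MT-ATP6 had 2315.7, 328.8 and 1279.0 CPM against 4632.4, 3229.6 and 3064.5 CPM (1.48 ± 0.60 and 1.03 ± 0.27). MT-ATP8 was counted at no more than 3.43 CPM in any library, and it overlaps MT-ATP6.

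The mitochondrial ribosomal RNAs, transcribed from the heavy strand, gave smaller values. MT-RNR2 had 4998.8, 2687.8 and 2684.3 CPM in vehicle and 6217.4, 6074.7 and 5683.6 CPM in ZA, with log2 fold changes of 0.79 ± 0.25 and 0.66 ± 0.23. MT-RNR1 overlapped between groups, with 1358.5, 177.1 and 772.8 CPM against 877.5, 1207.1 and 1157.2 CPM, and its value was 0.49 ± 0.60, or 0.03 ± 0.23 without vehicle 2.

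All genes of the mitochondrial chromosome took 3.27, 0.775 and 1.89% of counts in vehicle and 4.76, 4.50 and 4.26% in ZA. The nuclear 28S ribosomal RNA gene RNA28S5 took 2.06, 0.585 and 1.46% against 0.713, 1.06 and 0.945%, so vehicle 2 was the lowest library for both. The log2 fold change of RNA28S5 was -0.60 ± 0.43 in the 6 libraries and -0.96 ± 0.21 without vehicle 2. Whether the amount of ribosomal RNA left in a library has a part in the mitochondrial values was not tested. In bulk samples, fewer cells of a kind and less RNA per cell cannot be told apart. When mitochondrial genes and RNA28S5 were left out of the library totals, a setting added after seeing these shares, edgeR still called 0 other genes in both fits.

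The nuclear genes that supply the same complexes were not higher together. Of 75 nuclear-encoded respiratory chain subunits, 54 were below 0 with a median of -0.14, and 51 were below 0 with a median of -0.04 without vehicle 2. In 6 of them all ZA libraries lay below vehicle and in 0 above, beside 3.61% and 3.85% of all genes, and without vehicle 2 in 11 and 0, beside 7.13% and 6.92%. NDUFB8, a complex I subunit, had 6.41, 16.6 and 5.00 CPM against 4.01, 4.47 and 4.39 CPM, with log2 fold changes of -1.12 and -0.40. Of 32 genes for mitochondrial transcription and RNA upkeep, 24 were below 0 (median -0.11), but 18 were above 0 without vehicle 2 (median 0.02). FASTKD3, which acts in mitochondrial RNA processing, had 19.0, 27.3 and 18.5 CPM against 16.2, 16.2 and 13.9 CPM.

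Among 38 mitochondrial carriers, SLC25A27 and SLC25A37 had an unadjusted p under 0.05 in both fits, beside 1.73% and 2.36% of all genes. Every ZA library lay above vehicle in 2 carriers and below in 1, beside 3.85% and 3.61% of all genes. Without vehicle 2 these counts were 3 and 2, beside 6.92% and 7.13%. SLC25A27 encodes UCP4, a brain-enriched member of the uncoupling protein family, and lies at chr6:46620678-46645930 (GRCh37, plus strand). It had 6.55, 9.07 and 7.09 CPM in vehicle and 12.3, 13.8 and 13.9 CPM in ZA. Every ZA library lay above every vehicle library, with log2 fold changes of 0.82 ± 0.19 and 0.98 ± 0.17. Across the 18 alternatives tried on the 6 libraries its value stayed between 0.71 and 0.98. SLC25A37, mitoferrin-1, which imports iron into mitochondria, had 96.6, 88.6 and 90.8 CPM against 109.4, 115.8 and 123.1 CPM (0.34 ± 0.12 and 0.32 ± 0.12). The carriers as a list had a median of -0.03 in both fits.

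The transcript with the lowest p in both fits among those averaging 1 CPM or more was RP11-159D12.2, a long intergenic noncoding RNA at chr17:56066400-56072211 (GRCh37, minus strand). It read 14.5, 22.9 and 16.2 CPM in vehicle and 32.6, 31.7 and 34.3 CPM in ZA. The ZA libraries were tightly grouped and all above vehicle, of which vehicle 2 was the highest. Its log2 fold change was 0.88 ± 0.20 (95% interval 0.41 to 1.35, adjusted p = 0.911 by edgeR), and 1.11 ± 0.14 (0.78 to 1.44, adjusted p = 0.722) without vehicle 2. The authors' deposited table gave it a log2 fold change of 0.88 and an adjusted p of 0.994. That table held 0 genes with an adjusted p under 0.05 for ZA against vehicle, 318 with an unadjusted p under 0.05, and its lowest adjusted p, 0.557, belonged to MT-ND4L.

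Of the other 9 genes highest in ZA by p in the 6 libraries, SLC25A27 and MT-ND4L are described above. PABPC1L, a poly(A)-binding protein of the germ line, read 29.7, 27.0 and 27.6 CPM against 37.3, 51.7 and 46.6 CPM (0.69 ± 0.16), and it overlaps TOMM34 on the opposite strand. GIPR, the receptor of the incretin hormone GIP, read 2.90, 2.20 and 2.26 CPM against 5.09, 4.03 and 5.41 CPM (0.98 ± 0.24). REC8, a meiotic cohesin subunit, read 2.97, 2.03 and 2.26 CPM against 4.68, 5.26 and 4.26 CPM (0.97 ± 0.24). L3MBTL1, a reader of methylated histones, read 13.5, 9.86 and 11.4 CPM against 17.3, 18.9 and 20.7 CPM (0.71 ± 0.18). In all 4 every ZA library lay above vehicle, and without vehicle 2 the log2 fold changes were 0.67, 0.91, 0.88 and 0.62. LTB4R2 had 0.54, 0.45 and 0.83 CPM against 1.39, 2.31 and 1.91 CPM, but it overlaps LTB4R and NOP9, which had more counts, so its counts are uncertain. CTD-2228K2.7, a noncoding transcript opposite SLC9A3, read 5.54, 4.84 and 3.28 CPM against 7.41, 9.53 and 10.2 CPM.

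GABRE, the epsilon subunit of GABA-A receptors, completed the 10, and GABBR1, a subunit of the GABA-B receptor, was the other GABA receptor gene expressed above the filter, of 18 looked for. GABRE read 21.4, 20.4 and 16.1 CPM in vehicle and 32.5, 29.6 and 28.7 CPM in ZA. GABBR1 read 25.6, 18.5 and 22.7 CPM against 29.8, 40.3 and 40.8 CPM. Both were higher in every ZA library, as were 3.85% of all genes (6.92% without vehicle 2). Log2 fold changes were 0.65 ± 0.16 and 0.73 ± 0.20, and 0.71 ± 0.17 and 0.62 ± 0.17 without vehicle 2. GABRE was picked by its p, and the list was written with earlier results of these data known, so the pair is not independent evidence. SYNE4, named after its values were seen, had the lowest unadjusted p of all in the 6 libraries (0.00072) but fell under 1 CPM, with 0.20, 0.17 and 0.24 CPM against 0.93, 1.12 and 1.27 CPM.

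**Figure D4:**
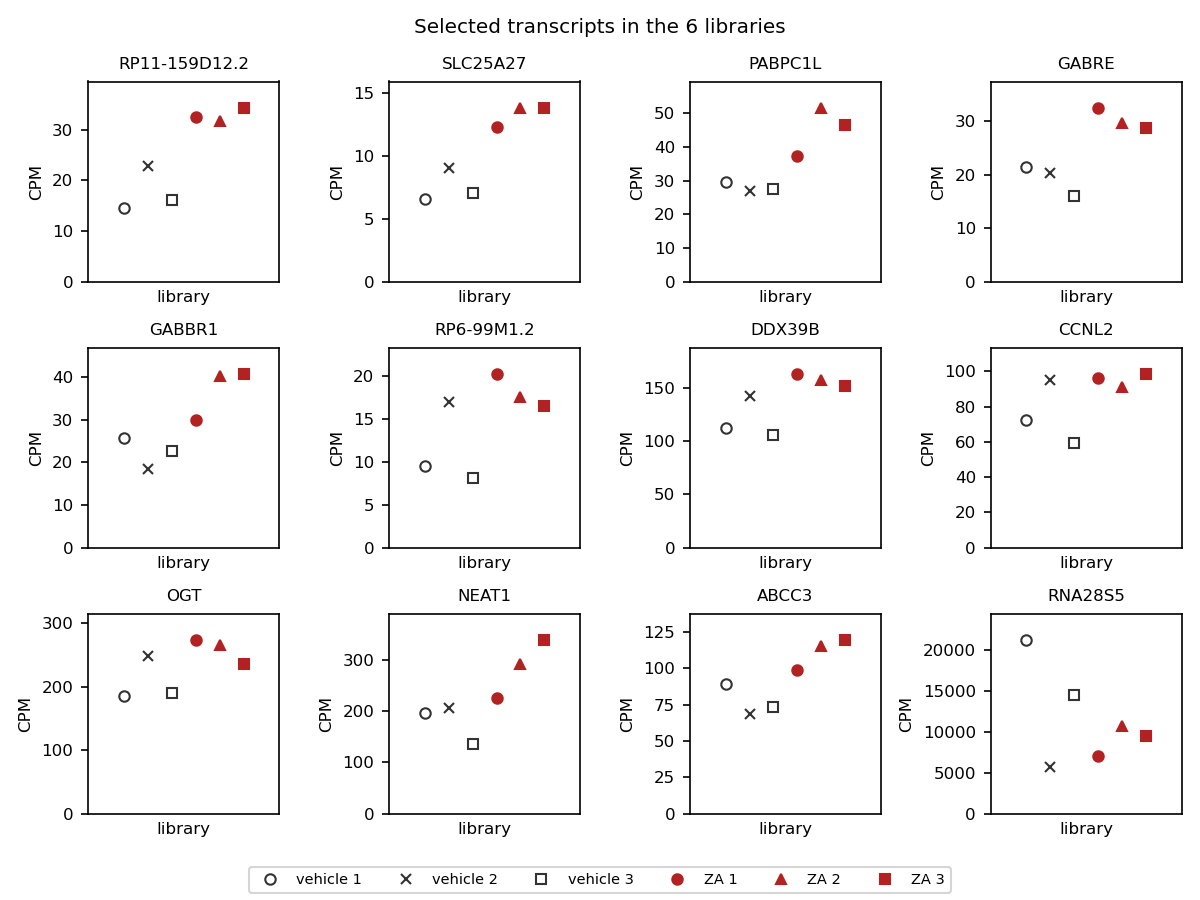
CPM in each vehicle library (black) and ZA library (red) for 12 named transcripts, each on its own linear axis from 0. The ZA points of RP11-159D12.2, SLC25A27, PABPC1L, GABRE, GABBR1, DDX39B, NEAT1 and ABCC3 lie above all vehicle points, while vehicle 2 lies among or near the ZA points in RP6-99M1.2, CCNL2 and OGT and is the lowest library in RNA28S5.

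Leaving out vehicle 2 brought further transcripts into the 10 highest. RP6-99M1.2, the host of miR-221 and miR-222, lies at chrX:45604639-45629677 (GRCh37, minus strand) and read 9.52, 17.01 and 8.10 CPM in vehicle and 20.3, 17.5 and 16.5 CPM in ZA. Vehicle 2 lay inside the ZA range, so its log2 fold change was 0.65 ± 0.29 with it and 1.05 ± 0.18 without it. Both microRNAs share the seed printed above, and neither was measured here as a mature RNA. RP4-555D20.2, another long intergenic noncoding RNA, read 25.0, 31.8 and 20.7 CPM against 37.1, 40.5 and 39.9 CPM (0.60 ± 0.19 and 0.79 ± 0.14). PCSK4, a proprotein convertase, read 3.92, 0.90 and 4.41 CPM against 6.58, 9.25 and 8.84 CPM (1.43 ± 0.51 and 0.99 ± 0.22).

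Some of these values cannot be tied to 1 gene or rest on 1 library. MTND2P28 is a nuclear pseudogene of MT-ND2 and may share its reads, GSTT2B has near-identical copies, and TCEA1P2 lies within GOLGA4 on the same strand. TCEA1P2 read 2.63, 14.1 and 3.57 CPM in vehicle and 5.71, 6.58 and 7.38 CPM in ZA, so its log2 fold change was -0.06 with vehicle 2 and 1.08 without it.

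Genes lower in ZA were fewer among those with an unadjusted p under 0.05 (53 against 196, and 57 against 290 without vehicle 2), although over all genes 7365 lay below 0 and 7062 above. SMN1, which is needed to assemble splicing particles, read 16.7, 27.4 and 30.7 CPM against 12.04, 13.96 and 14.69 CPM (-0.88 ± 0.25 and -0.80 ± 0.25), but its near-identical copy SMN2 makes the split of reads uncertain. TMA7, a small ribosome-associated protein, read 49.4, 63.7 and 53.7 CPM against 43.3, 42.2 and 39.2 CPM (-0.42 ± 0.15 and -0.30 ± 0.13). TNFRSF9, the costimulatory receptor 4-1BB, read 5.47, 5.58 and 6.19 CPM against 4.01, 4.19 and 3.18 CPM (-0.59 ± 0.21 and -0.60 ± 0.22). The groups were apart in each of these. SIX3, a homeobox factor, read 1.42, 1.80 and 1.43 CPM against 0.72, 0.76 and 0.64 CPM (-1.12 ± 0.32 and -0.99 ± 0.37). The other 6 of the 10 lowest were JPH1, CENPBD1, WDR31, AC012146.7, CTD-2561J22.2 and RP11-216M21.1, whose log2 fold changes lay between -1.18 and -0.67 at 6.13 CPM or less in every library. Without vehicle 2 the pseudogene RPL29P11 (-1.35 ± 0.28), POT1-AS1, ZBTB20, HOXD3 and LA16c-380H5.5 joined them besides RNA28S5, and in these 5 genes vehicle 2 was the lowest vehicle library.

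A few splicing-related genes were higher in every ZA library, in the 6 libraries at a share close to that of all genes. The list was written with earlier results of these data known, so its counts are not independent evidence. Of 39 SR protein and nuclear speckle genes, 24 were above 0 in the 6 libraries and 29 without vehicle 2, with a median of 0.05 in both. An unadjusted p under 0.05 was reached by 2 and 6 of them, beside the 1.73% and 2.36% of all genes, and groups without overlap numbered 2 and 7, all with ZA higher, beside 3.85% and 6.92% of all genes. DDX39B, an RNA helicase of splicing and mRNA export, read 112.2, 142.0 and 105.1 CPM in vehicle and 163.1, 156.8 and 151.6 CPM in ZA (0.39 ± 0.15 and 0.54 ± 0.12). PNISR, a speckle protein, read 45.2, 47.6 and 50.9 CPM against 61.8, 60.3 and 56.5 CPM (0.31 ± 0.13 and 0.32 ± 0.13). Both were higher in every ZA library. In an alternative fit of 10 libraries, which added the SFN groups and a GC correction and left out vehicle 2 and SFN 2, edgeR called 19 genes (0.124%), all higher in ZA, among them DDX39B, CCNL2, NKTR, LUC7L3, OGT, RP11-159D12.2, RP6-99M1.2, SLC25A27, ABCC3, GABRE and GABBR1 but 0 mitochondrial messenger RNAs. The same 10 libraries without the GC correction gave 0 calls (lowest adjusted p 0.064 by edgeR), as did the 5 libraries with it (0.068).

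For CCNL2, NKTR and LUC7L3 the separation appeared only without vehicle 2. CCNL2, a cyclin that binds splicing factors, read 72.6, 94.8 and 59.3 CPM against 96.1, 91.3 and 98.7 CPM (0.34 ± 0.19 and 0.55 ± 0.14). The library with most CCNL2 among vehicles was vehicle 2, as it was for NKTR at 129.0 CPM and LUC7L3 at 133.5 CPM. SRSF3, which encodes an SR protein, went the other way at -0.35 with vehicle 2 and -0.05 without it.

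OGT, which places O-linked N-acetylglucosamine on nuclear and cytosolic proteins, followed the same pattern. It read 185.5, 248.7 and 190.4 CPM in vehicle and 274.0, 264.8 and 236.3 CPM in ZA. Vehicle 2 lay inside the ZA range, and the log2 fold change was 0.31 (-0.05 to 0.68) with it and 0.47 (0.19 to 0.75) without it. The other named members of its pathway, PGM3, GNPNAT1, UAP1, NAGK and MGEA5, overlapped between groups in both fits, and 2 of the 8 members tested were above 0 with vehicle 2 and 6 without it. MGEA5, the enzyme that removes the sugar, read 151.6, 207.0 and 163.7 CPM against 185.8, 161.7 and 162.4 CPM.

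NEAT1, the long noncoding RNA that scaffolds paraspeckles, read 195.7, 206.6 and 135.5 CPM in vehicle and 226.2, 292.1 and 339.2 CPM in ZA. Groups did not overlap, although the lowest ZA library lay close to the highest vehicle library, and the log2 fold change was 0.67 ± 0.22, or 0.80 ± 0.21 without vehicle 2. Of 14 nuclear long noncoding RNAs and snoRNA hosts, 4 were above 0 in the 6 libraries and 9 without vehicle 2.

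ABCC3, an exporter of conjugated organic anions and a known NRF2 target, read 89.4, 68.8 and 73.5 CPM against 98.9, 115.7 and 119.9 CPM (0.53 ± 0.15 and 0.46 ± 0.14). Its ZA libraries all lay above vehicle. Most NRF2 targets did not share this: of 32, ABCC3 included, 20 were below 0 (23 without vehicle 2). Every ZA library lay above vehicle in 1 of the 32 and below in 5, beside 3.85% and 3.61% of all genes. Without vehicle 2 these counts were 2 and 7, beside 6.92% and 7.13% of all genes. NQO1, a quinone reductase, read 260.1, 328.3 and 276.7 CPM against 246.5, 246.5 and 237.7 CPM, below vehicle in every library, with log2 fold changes of -0.24 ± 0.13 and -0.13 ± 0.11. ABCC5, an exporter of cyclic nucleotides, read 28.97, 42.91 and 29.95 CPM against 37.4, 37.5 and 37.3 CPM, so it lay above vehicle only without vehicle 2. Of 10 ABC exporters tested, 7 were above 0 in each fit, with medians of 0.13 and 0.06.

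Most proliferation genes had log2 fold changes slightly below 0. Of 30 mitotic genes, 22 were below 0 with a median of -0.07, and 24 with a median of -0.04 without vehicle 2. CDC25C, a phosphatase that triggers mitosis, read 38.4, 44.9 and 38.3 CPM against 36.4, 32.2 and 30.3 CPM (-0.30 ± 0.15 and -0.20 ± 0.14). Of 32 DNA replication genes, 25 were below 0 with a median of -0.16, which was -0.04 without vehicle 2. PCNA, the sliding clamp, read 184.0, 285.3 and 204.1 CPM against 182.1, 176.9 and 176.9 CPM (-0.33 ± 0.18 and -0.11 ± 0.12). CCNE1, cyclin E, read 12.4, 11.2 and 11.2 CPM against 6.99, 9.85 and 10.3 CPM (-0.36 ± 0.20 and -0.37 ± 0.20). POLE, the leading-strand polymerase, went the other way, with 102.2, 87.8 and 97.5 CPM against 105.6, 124.6 and 118.4 CPM (0.28 ± 0.13 and 0.23 ± 0.12). No gene of either list had an unadjusted p under 0.05.

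Of 79 cytosolic ribosomal protein genes, 49 were below 0 with a median of -0.10, and 59 with a median of -0.07 without vehicle 2. Every ZA library lay below every vehicle library in 4 of the 79 in the 6 libraries and in 11 without vehicle 2, beside 3.61% and 7.13% of all genes, and above in 0 in both fits.

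Death and stress lists were near 0. Of 23 BCL2 family and death regulators, 14 were above 0 (median 0.03) and 18 without vehicle 2 (median 0.06), and MCL1, an anti-apoptotic member, read 345.2, 405.3 and 332.2 CPM against 355.7, 353.0 and 355.5 CPM. The p53 targets and cell cycle inhibitors had a median of -0.01 over 25 genes, and C12orf5 (TIGAR), which lowers glycolytic flux, was lower in every ZA library at 5.76, 5.38 and 4.20 CPM against 6.75, 7.27 and 7.80 CPM (-0.50 ± 0.20 and -0.49 ± 0.21). The integrated stress response (28 genes) changed sign, from 0.05 to -0.04 without vehicle 2. ER chaperones (20 genes) had medians of -0.08 and -0.04, and heat shock genes (14 genes) of -0.06 and -0.04. HSPA8, the constitutive heat shock cognate, read 1531.7, 2010.9 and 1672.5 CPM against 1516.3, 1499.4 and 1383.6 CPM (-0.25 ± 0.14 and -0.12 ± 0.12).

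For lists tied to invasion and bone, 25 bone metastasis regulators had medians of -0.08 and -0.02. TNFRSF11B, the RANKL decoy osteoprotegerin, read 1.82, 1.46 and 1.67 CPM against 1.08, 1.12 and 0.45 CPM, below vehicle in every ZA library (-0.87 ± 0.41 and -0.93 ± 0.43). CXCR4, a homing receptor, read 3.85, 5.58 and 4.17 CPM against 3.14, 4.39 and 2.67 CPM, with overlap. Among 25 matrix proteases and inhibitors (median -0.03 in both fits), MMP24, a membrane-type metalloproteinase, read 8.10, 4.17 and 7.80 CPM against 10.1, 10.1 and 11.3 CPM (0.65 ± 0.27 and 0.41 ± 0.17). Mesenchymal markers (21 genes) had medians of -0.03 and -0.02, with vimentin, VIM, at 1048.0, 1561.1 and 1136.2 CPM against 1154.2, 985.9 and 955.0 CPM. Epithelial markers (18 genes) had a median of 0.14 that was -0.03 without vehicle 2.

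Immune and signalling lists showed the same dependence. AP-1 and immediate early genes had a median of 0.19 with 22 of 27 above 0, and 0.04 with 16 of 27 without vehicle 2. In DUSP4, a phosphatase that acts on MAP kinases, vehicle 2 read 183.0 CPM and the other vehicle libraries 262.2 and 259.8 CPM, against 265.6, 268.3 and 278.1 CPM in ZA. NF-kB targets and cytokines went from 0.12 to 0.01 over 21 genes. Interferon-stimulated genes had medians of -0.04 and 0.00 over 30 genes, with IFIT1 at 75.0, 96.3 and 74.3 CPM against 68.4, 69.3 and 60.5 CPM, lower in every ZA library (-0.31 ± 0.15 and -0.16 ± 0.13). Glycolysis and hypoxia genes (33) had medians of 0.02 and -0.02, and autophagy and lysosome genes (33) of -0.04 and 0.00. The 13 replication-dependent histone genes had 10 below 0 in both fits (medians -0.13 and -0.04), and 9 genes of the non-sterol isoprenoid branches had medians of -0.13 and -0.05. No list in this or the previous 2 paragraphs had more than 1 gene at an unadjusted p under 0.05 in either fit.

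**Figure D5:**
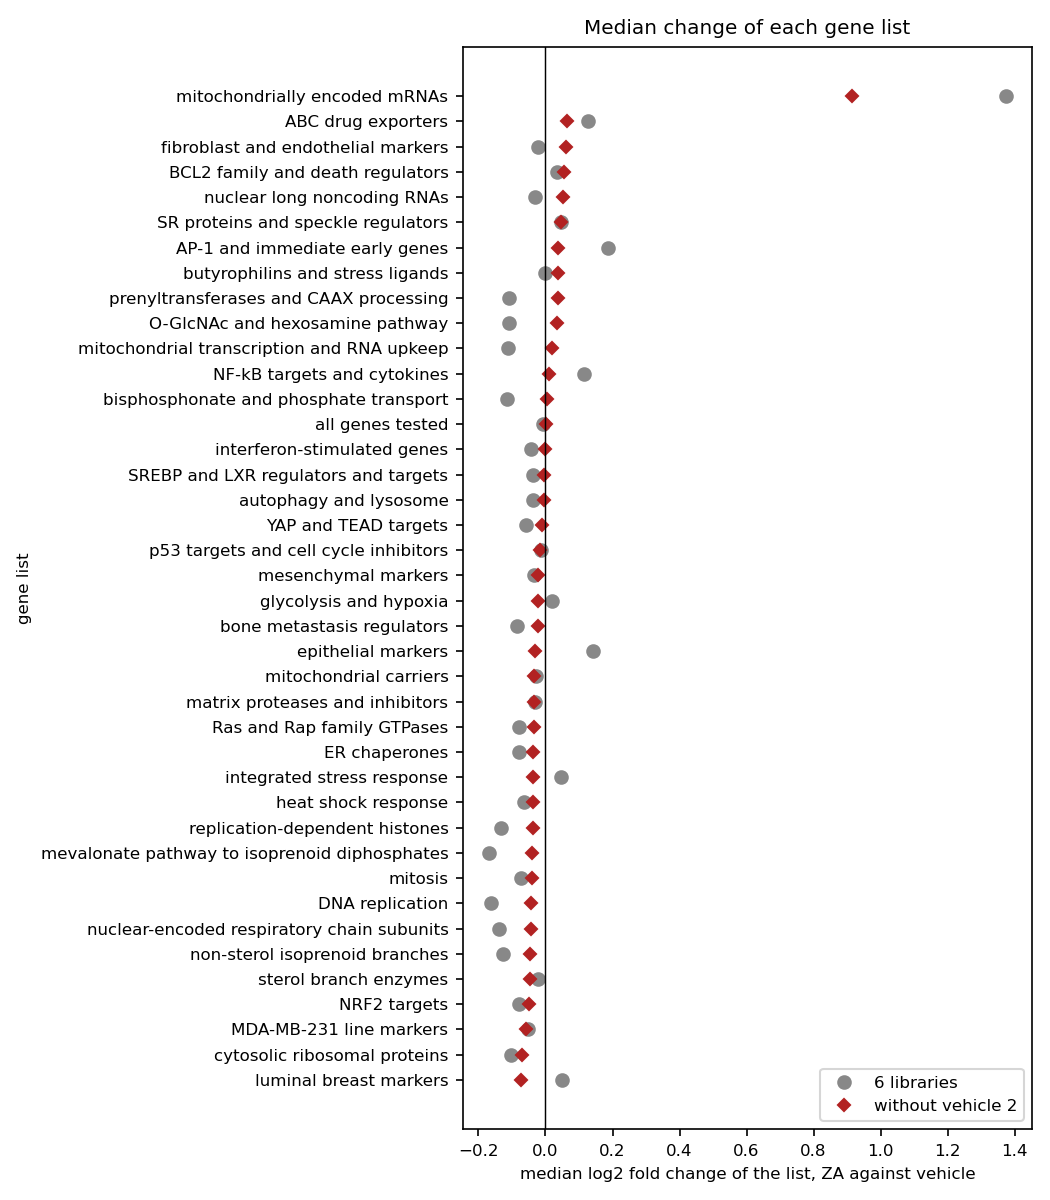
Each row is a gene list with 5 or more genes tested (39 lists reported and all genes), and points give its median log2 fold change, ZA against vehicle, in the 6 libraries (grey) and without vehicle 2 (red). Mitochondrially encoded mRNAs lie at 1.37 and 0.92, and without vehicle 2 the other lists lie between -0.07 and 0.06.

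The log2 fold changes with vehicle 2 varied with the base composition of genes. Split into 5 groups of nearly equal size by GC content, genes had median log2 fold changes from -0.14 in the group poorest in GC to 0.29 in the richest in the 6 libraries, and from -0.01 to 0.03 over these groups without vehicle 2. Across genes the rank correlation of GC content with the log2 fold change was 0.559 in the 6 libraries and 0.062 without vehicle 2. The epithelial, AP-1, DNA replication and prenylation lists had medians that differed between the fits, and whether base composition set those medians was not tested.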

How the data were processed

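Total RNA was column-purified and sequenced with Illumina protocols, per the labels. HISAT2 (no version) and GRCh37/hg19 are named in the submitters' processing notes; of the counter, strand setting, annotation release and library kit, the sources used here say nothing. Deposited by the authors were whole-number read counts per gene, FPKM values, group means (signal), log2 fold changes, p-values and other gene fields such as length. edgeR 4.0.16 (R 4.3.3) compared the counts of the 6 libraries, with and without vehicle 2 (filterByExpr, TMM scaling, robust quasi-likelihood fit, Benjamini-Hochberg adjusted p under 0.05). The code was run on simulated counts with less spread between libraries than these data, which does not show what the fit could call here. CPM were computed from raw totals of 15.3 M to 25.4 M counts multiplied by TMM factors. SE is the fitted log2 fold change divided by the root of its F value. Alternatives used DESeq2 1.42.0, other filters, a GC offset, more libraries and each library left out. Replicate numbers did not pair the samples. Genes, lists and members were chosen with earlier results of these data known. Named genes were the 10 higher and 10 lower of lowest p averaging 1 CPM or more, every tested member of the pathway, transport, prenylation and mitochondrial lists, the 5 members of lowest p in other lists, and a set of pathway genes. A few genes and lists within that rule are not reported here.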

Additional observations from a re-analysis of the deposited data

How the results depend on the processing

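In the 6 libraries edgeR and DESeq2 called 0 genes under all 18 alternatives, including each library left out (0 to 0 higher and 0 to 0 lower), with unadjusted p under 0.05 for 51 to 795 genes; the highest number came without vehicle 1. Without vehicle 2 the counts moved from 0 higher and 0 lower to 12 higher and 1 lower with DESeq2's Wald test, 24 higher and 4 lower with no low-count filter (10 of them mitochondrial mRNAs), 3 higher and 2 lower with the replicate block (MT-ND4L among them), and 19 higher and 0 lower in 10 libraries with a GC offset. Leaving out each library in turn gave 0 to 0 higher and 0 to 1 lower, the 1 without ZA replicate 3. The cause was not tested. The replicate block is a number without pairing: same-numbered deviations had correlations of -0.576, -0.277 and 0.141, and in the 6 libraries the block called 0 and left 99 genes at an unadjusted p under 0.05. Fits that left 1 vehicle library assume that it varies like the ZA libraries. Of the alternative values of list medians, 44 moved by more than 1 SD between libraries and 1346 did not. That SD is taken within groups, and in the 6 libraries it includes vehicle 2. Of the alternative values of named genes, 667 changed sign, 11580 kept it without a call and 51 kept it with a call. With 3 libraries a group, the median 95% interval reached 0.52 to either side (0.42 without vehicle 2) on the log2 scale, which limits what could be called.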

Other observations

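Transcript classes differed in how often they lay above 0. Of 510 antisense RNAs tested in the 6 libraries, 330 (64.7%) had a positive log2 fold change with a median of 0.16, and in 52 every ZA library lay above every vehicle library, against 14 below, beside 3.85% and 3.61% of all genes. Without vehicle 2, 337 of 558 (60.4%) were positive with a median of 0.10, and 87 lay above and 39 below, beside 6.92% and 7.13% of all genes. Sense-intronic transcripts had medians of 0.09 over 62 and 0.16 over 63 genes, with 34 and 41 positive, and pseudogenes had medians of 0.07 and 0.05 with 56.3% positive over 696 and over 739 genes. Sense-overlapping transcripts had medians of 0.06 over 42 and -0.03 over 43 genes, with 22 and 19 positive. Protein-coding genes had medians of -0.01 and 0.00, with 47.7% and 49.0% positive. Long intergenic noncoding RNAs lay between, with 257 of 499 and 295 of 542 positive. Without a stated strand setting, reads of an antisense gene cannot be told apart from those of its partner, and no class was tested against another.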
